A study of Mus musculus with 8 samples.

Results

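The mRNA expression of 9 complement genes, C1ra, C1s1, C2, C3, C4b, Cfb, Cfp, Serping1 and Cd55, was followed in mouse osteogenic cultures treated with locamidazole (LAMZ), a compound selected for its effects on muscle and bone cells. The genes were chosen by symbol, and each of the 9 was found among the 51822 gene symbols used. There were 4 groups with 2 libraries each: control cultures at day 7, LAMZ-treated cultures at day 7, control cultures at day 14 and LAMZ-treated cultures at day 14. LAMZ was added at 1 μmol/L and control cultures received the vehicle DMSO, and all cultures were kept in medium with serum, ascorbic acid, β-glycerophosphate and dexamethasone, a synthetic glucocorticoid. The series title and the RNA sequencing methods of the study name calvarial cells, which are cells digested from the skull bones of newborn mice. The sample labels instead name MC3T3-E1, a clonal osteoblastic line derived from mouse calvaria. No label says whether the 2 libraries of a group came from separate cultures, so the p-values measure only the spread between these libraries.

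Complement is a cascade of plasma proteins and membrane proteins that marks particles for uptake and triggers inflammation. In the classical pathway the proteases C1r and C1s are bound to C1q, and C1s cuts C4 and C2. In the alternative pathway C3 and factor B form a convertase that properdin stabilises. C1 inhibitor and CD55 restrain these steps. The liver makes most of the plasma proteins, while fibroblasts, osteoblasts and macrophages make several of them locally.

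Expression was measured as RPKM, the reads of a gene divided by its exon length and by the sequencing depth of the library, so levels of different genes can be compared. The libraries held 3463538 to 5832101 mapped reads, as recovered from the RPKM values. The 16 osteoblast and stromal markers were at 1 RPKM or more in every library, with a summed level of 7728 to 17027 RPKM. Macrophage markers were also present in the control libraries, with a summed level over 23 genes of 497 to 653 RPKM at day 7 and 1252 to 1262 RPKM at day 14, against 7.64 to 9.74 RPKM over the 4 LAMZ libraries. In 8 of the 23, among them C1qa, C1qb, C1qc, Tyrobp and Laptm5, all 4 LAMZ libraries were at 0. In Lyz2 they were at 5.29 to 8.20 RPKM. The control libraries thus held macrophage transcripts besides stromal ones, and in bulk RNA the cell type that carried a complement transcript was not seen. Control replicates of a day also differed in adipocyte markers, summed over 5 genes. At day 14 the sum was 57.4 RPKM in control replicate 2, against 10.2 RPKM in replicate 1. At day 7 it was 1.29 RPKM in control replicate 2, against 7.26 RPKM in replicate 1.

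In every one of the 9 genes, both LAMZ libraries lay below both control libraries on day 7 and again on day 14. Of 12514 genes tested, 35.9% showed such a separation at day 7, 44.2% at day 14 and 23.7% on both days. For 8 of the 9 genes the level was high enough for the test across all genes (1 RPKM or more in at least 2 libraries), and these 8 were called lower in LAMZ cultures on each day at an adjusted p under 0.05. None of the 8 was called higher. Among all tested genes 8.49% were called lower at day 7, 16% at day 14, 6.11% on both days and 20.3% when the days were averaged, where the 8 genes were called lower as well; 4.35% were called higher at day 7 and 6.96% at day 14. The median log2 fold change of the 8 genes was -1.71 at day 7 and -2.17 at day 14, against -0.08 and -0.15 over all tested genes. C2, C3, Cfb and Cfp would not have entered the test on their LAMZ libraries alone and therefore had to differ, so the counts describe the set and do not add to the tests of single genes. In bulk libraries, fewer cells of a type and less RNA per cell cannot be told apart.

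**Figure D1:**
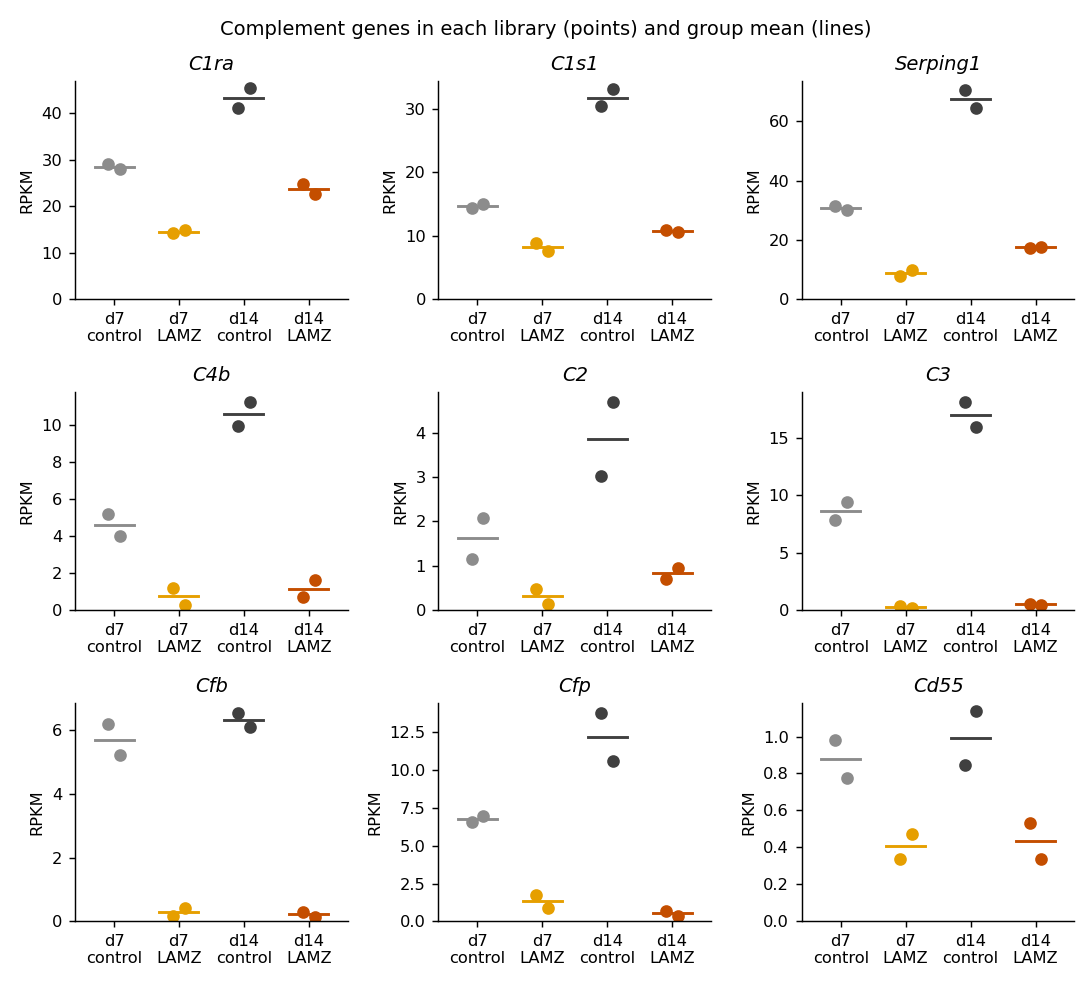
Expression (RPKM, linear axis from 0, a separate scale for each gene) of the 9 complement genes; each point is a library and each line the mean of 2 libraries, for control and LAMZ cultures at day 7 (d7) and day 14 (d14). In each panel the 2 LAMZ points of a day lie below the 2 control points of that day, and C3, Cfb, C2 and Cd55 stay under 1 RPKM in all 4 LAMZ libraries.

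C1ra and C1s1 encode the serine proteases C1r and C1s that start the classical pathway. The genes lie next to each other on chromosome 6 and point towards each other, C1ra at chr6:124512405-124523443 on the plus strand and C1s1 at chr6:124530345-124542359 on the minus strand (GRCm38), with 6901 bases between them. The 250 bases before their RefSeq starts are shown because, of the 8 tested genes, this pair kept the highest share of its mean control RPKM in LAMZ cultures on each day; they are RefSeq sequences of GRCm38.p6, at chr6:124512371-124512620 for C1ra and chr6:124542360-124542609, read on the minus strand, for C1s1. The RefSeq start of C1ra lies inside the gene as placed above from GENCODE, so 216 of the 250 bases of its window are within that gene, while 0 of those of C1s1 are. Capitals mark the match to the C/EBP motif TTGCNNAA, here on the opposite strand and with its first base 242 bases before the RefSeq start of C1s1.
C1ra: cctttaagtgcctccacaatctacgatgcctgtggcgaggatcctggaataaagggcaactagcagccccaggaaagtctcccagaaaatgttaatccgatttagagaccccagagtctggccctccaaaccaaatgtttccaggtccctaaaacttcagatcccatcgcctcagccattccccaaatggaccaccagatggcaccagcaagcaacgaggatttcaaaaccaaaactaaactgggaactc
C1s1: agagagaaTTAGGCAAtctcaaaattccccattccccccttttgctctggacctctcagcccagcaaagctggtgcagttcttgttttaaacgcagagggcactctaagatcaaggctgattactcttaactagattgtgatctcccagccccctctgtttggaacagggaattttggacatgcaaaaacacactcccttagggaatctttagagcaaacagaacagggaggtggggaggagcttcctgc
No match to the C/EBP motif or to the other 4 motifs searched, named with C3 further on, was in the C1ra window, and C1s1 held the C/EBP match only. The window of a second RefSeq start of C1s1, chr6:124542322-124542571, of which 38 bases are within the gene, held no match.

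C1ra was at 29.1 and 28.0 RPKM in the day 7 control libraries and at 14.2 and 14.8 RPKM in the day 7 LAMZ libraries. At day 14 the control libraries were at 41.2 and 45.4 RPKM and the LAMZ libraries at 24.8 and 22.6 RPKM. Every library of the 8 therefore carried a clear C1ra signal, and the groups of a day did not overlap. The log2 fold change was -0.93 (SE 0.11) at day 7 with an adjusted p of 0.002 and -0.84 (SE 0.11) at day 14 with an adjusted p of 0.00169 (limma), and the ratio of mean RPKM between control and LAMZ was 1.97 and 1.83. C1ra thus showed the smallest ratio of the 9 genes at day 14, and only C1s1 showed a smaller one at day 7.

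C1s1 was at 14.4 and 15.0 RPKM in day 7 control and at 8.92 and 7.67 RPKM in day 7 LAMZ libraries. At day 14 it was at 30.4 and 33.2 RPKM in control and at 11.0 and 10.7 RPKM in LAMZ libraries. The separation was wider on the later day, where the control level was higher. On the log2 scale the fold change was -0.76 (SE 0.12) at day 7 with an adjusted p of 0.00563 and -1.47 (SE 0.12) at day 14 with an adjusted p of 0.000154 (limma). Without day 7 LAMZ replicate 2 the day 7 comparison of C1s1 was no longer called, at an adjusted p of 0.0504. The protease pair did not keep a fixed proportion: C1ra was 1.36 to 1.37 times C1s1 in RPKM in day 14 control and 2.12 to 2.26 times in day 14 LAMZ libraries, while at day 7 the ratios of control (1.86 to 2.02) and LAMZ (1.59 to 1.93) overlapped.

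Serping1 encodes C1 inhibitor, the protein that blocks C1r and C1s; it lies at chr2:84765387-84775444 on the minus strand. Among the 9 genes it was the most abundant in control cultures. Its level was 31.4 and 29.9 RPKM in day 7 control and 7.77 and 9.82 RPKM in day 7 LAMZ libraries. At day 14 control libraries held 70.4 and 64.6 RPKM and LAMZ libraries 17.3 and 17.7 RPKM. The libraries of a group lay close together and far from the other treatment on each day. The log2 fold change was -1.70 (SE 0.13) at day 7 with an adjusted p of 0.000266 and -1.89 (SE 0.13) at day 14 with an adjusted p of 7.6e-05 (limma), and control over LAMZ was 3.48-fold and 3.85-fold in mean RPKM. The balance between inhibitor and protease transcripts shifted with treatment: Serping1 over C1ra was 1.07 to 1.71 in the 4 control libraries and 0.548 to 0.783 in the 4 LAMZ libraries.

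C4b and C2 encode the substrates of C1s, which together form the classical C3 convertase. Both belong to the complement cluster of chromosome 17, C4b at chr17:34728380-34743882 and C2 at chr17:34862604-34898265, each on the minus strand. C4b was at 5.17 and 4.01 RPKM in day 7 control and at 1.19 and 0.303 RPKM in day 7 LAMZ libraries. At day 14 its level was 9.94 and 11.2 RPKM in control and 0.723 and 1.62 RPKM in LAMZ libraries. The LAMZ libraries of a day differed more from each other, in proportion, than the control libraries, but stayed well below them. The log2 fold change of C4b was -1.72 (SE 0.28) at day 7 with an adjusted p of 0.00744 and -2.45 (SE 0.28) at day 14 with an adjusted p of 0.000856 (limma). Fitted on the 4 day 7 libraries alone, it was not called at day 7, at an adjusted p of 0.0523.

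C2 was lower throughout, at 1.16 and 2.09 RPKM in day 7 control libraries and at 0.484 and 0.149 RPKM in day 7 LAMZ libraries, the last of these from 3 reads. At day 14 it was at 3.03 and 4.68 RPKM in control and at 0.709 and 0.952 RPKM in LAMZ libraries. The groups did not overlap, but the control libraries of a day were far apart from each other. In the fit the log2 fold change was -0.99 (SE 0.26) at day 7 with an adjusted p of 0.0428 and -1.39 (SE 0.26) at day 14 with an adjusted p of 0.00689 (limma). At day 7 C2 was the least certain of the 8: in 13 of 21 other settings it was not called, with adjusted p-values over the settings of 0.0185 to 0.193. At day 14 only the fit without day 14 control replicate 2 lost it, at an adjusted p of 0.0547. Zbtb12, which overlaps C2 on the other strand, was at 1.66 to 3.72 RPKM; how strand was treated is not given in the sources used here, so reads of the overlap cannot be told apart.

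C3, the protein on which all pathways of complement converge, lies at chr17:57203970-57228136 on the minus strand. It was among the genes with the steepest fall in LAMZ cultures. The sequence upstream of its RefSeq start, at chr17:57228137-57228386 of GRCm38.p6 and read on the minus strand, is shown because it held a match to the C/EBP motif TTGCNNAA, in capitals, with its first base 45 bases before the start.
C3: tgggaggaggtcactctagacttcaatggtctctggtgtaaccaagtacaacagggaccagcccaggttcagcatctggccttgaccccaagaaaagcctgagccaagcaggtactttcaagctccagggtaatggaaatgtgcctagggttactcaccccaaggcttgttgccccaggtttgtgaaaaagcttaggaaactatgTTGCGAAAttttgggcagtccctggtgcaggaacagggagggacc
Of 32851 RefSeq promoter windows of 250 bases, 9.56% held this motif on either strand, so a match in C3 and C1s1 is a description of these sequences only. The C3 window held no match to the interferon motif ISRE, GAAA and GAAA with any 2 bases between them (in 2.98% of windows), the STAT motif TTCNNNGAA (7.02%), the NF-kB motif, GGG and TTTCC with any 2 bases between them (1.41%), or the glucocorticoid motif, ACA and TGTTC with any 3 bases between them (0.849%), each searched on both strands; matches of different motifs may overlap. Windows were at hand for 5 of the 9 genes, and those of Cfp and Cd55 held none of the 5 motifs; C2, C4b, Cfb and Serping1 had no entry.

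The level of C3 was 7.89 and 9.38 RPKM in day 7 control libraries and 0.410 and 0.224 RPKM in day 7 LAMZ libraries. In day 14 control libraries it was 18.1 and 15.9 RPKM, against 0.567 and 0.478 RPKM in day 14 LAMZ libraries. Control libraries held 153 to 499 reads of C3 and LAMZ libraries 6 to 17. For C3 the log2 fold change was -2.87 (SE 0.14) at day 7 with an adjusted p of 5.49e-05 and -3.56 (SE 0.14) at day 14 with an adjusted p of 6.26e-06 (limma), and 0.232% and 0.248% of all tested genes had a lower value. In mean RPKM the control cultures were 27.2-fold above the LAMZ cultures at day 7 and 32.5-fold above them at day 14; these ratios exceed the fitted fold changes because the fit adds 1 to each RPKM. Counting error alone put the ratio of reads at 16.7 to 50.5 at day 7 and 22.4 to 48.8 at day 14 (95% exact interval). C3 was 0.271 to 0.438 times C1ra in control libraries and 0.0151 to 0.0290 times C1ra in LAMZ libraries.

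Cfb encodes factor B, the protease part of the alternative C3 convertase, and lies at chr17:34856374-34862518, only 85 bases from C2. It was at 6.20 and 5.21 RPKM in day 7 control and at 0.166 and 0.408 RPKM in day 7 LAMZ libraries. At day 14 control libraries were at 6.53 and 6.11 RPKM and LAMZ libraries at 0.303 and 0.145 RPKM. The LAMZ libraries rested on 2 to 6 reads each, against 51 to 99 reads in the controls. For Cfb the log2 fold change was -2.38 (SE 0.16) at day 7 with an adjusted p of 0.000157 and -2.58 (SE 0.16) at day 14 with an adjusted p of 5.26e-05 (limma). The counting intervals of the control-to-LAMZ ratio were wide at these depths, 9.41 to 45.4 at day 7 and 13.0 to 69.1 at day 14. A read-through gene model, Gm20547, overlaps Cfb and C2 but was at 0 to 0.477 RPKM.

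Cfp encodes properdin, which stabilises the alternative convertase and is known to be made by leukocytes; it lies at chrX:20925454-20931555. Its level was 6.57 and 6.99 RPKM in day 7 control and 1.76 and 0.885 RPKM in day 7 LAMZ libraries. At day 14 it was 13.7 and 10.6 RPKM in control and 0.691 and 0.354 RPKM in LAMZ libraries. The control libraries were higher and the LAMZ libraries lower on the later day, so the distance between treatments was greatest there. The log2 fold change was -1.77 (SE 0.21) at day 7 with an adjusted p of 0.00203 and -3.11 (SE 0.21) at day 14 with an adjusted p of 7.43e-05 (limma). The ratio of mean RPKM, control over LAMZ, was 5.13 at day 7 and 23.3 at day 14.

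Cd55 encodes decay-accelerating factor, a membrane protein that breaks up convertases on host cells; it lies at chr1:130439027-130462744. It reached 1 RPKM in 1 library only and was left out of the test. The libraries were at 0.984 and 0.773 RPKM in day 7 control, 0.338 and 0.475 RPKM in day 7 LAMZ, 0.844 and 1.14 RPKM in day 14 control, and 0.530 and 0.338 RPKM in day 14 LAMZ. Control libraries were above LAMZ libraries on each day, with 13 to 25 reads against 7 to 15. In a fit without the filter on low values, Cd55 was not called: limma gave -0.42 on the log2 scale at day 7, with an adjusted p of 0.384, and -0.47 at day 14, with an adjusted p of 0.216. The near-identical copies C1rb, C1s2, C4a and Cd55b were each at 0.419 RPKM or less in every library, but how reads were divided between copies is not given in the sources used here.

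**Figure D2:**
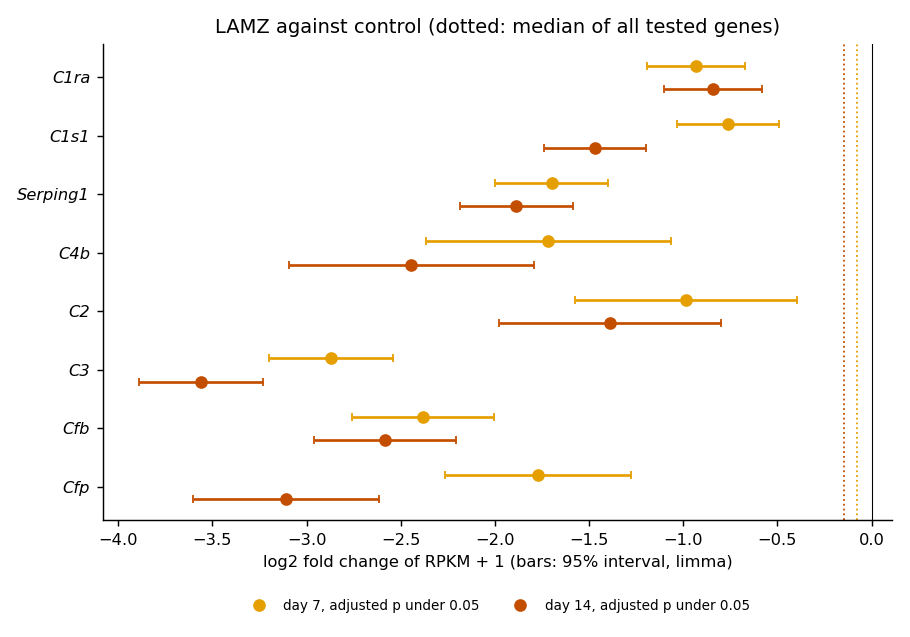
Log2 fold change of RPKM + 1, LAMZ against control, for the 8 tested complement genes at day 7 and day 14; points are limma estimates from 2 libraries a group, bars are 95% intervals, and dotted lines mark the medians of all 12514 tested genes, -0.08 at day 7 and -0.15 at day 14. All 16 intervals lie below 0, from C1s1 at day 7 (-0.76) to C3 at day 14 (-3.56).

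The 9 genes differed in how far they fell, and the order of their levels changed with treatment. In control cultures the order was Serping1, C1ra, C1s1 and C3 on each day, with no overlap between neighbours; Cfp, Cfb and C4b followed, and C2 and Cd55 were lowest. Cfp and C4b overlapped at day 14. In LAMZ cultures C1ra was the most abundant, above Serping1, and at day 7 Serping1 and C1s1 overlapped. The other 6 were at 1.76 RPKM or less in each LAMZ library, and most neighbours among them overlapped. Together the 9 genes summed to 103 and 101 RPKM in day 7 control, 35.2 and 34.7 RPKM in day 7 LAMZ, 194 and 193 RPKM in day 14 control, and 56.6 and 54.9 RPKM in day 14 LAMZ libraries. C1ra, C1s1 and Serping1 made up 72.0% to 74.3% of that sum in control libraries and 87.6% to 93.8% in LAMZ libraries.

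Between day 7 and day 14 the control cultures gained complement transcripts. Of the 8 tested genes 4 were called higher at day 14 in control cultures, against 2.46% of all tested genes: Serping1 with a log2 fold change of 1.11 (SE 0.13, adjusted p of 0.0075), C1s1 with 1.06 (SE 0.12, adjusted p of 0.00621), C3 with 0.90 (SE 0.14, adjusted p of 0.0163) and C1ra with 0.58 (SE 0.11, adjusted p of 0.0314; limma). C4b, C2 and Cfp were not called, at values of 1.06 (adjusted p of 0.0753), 0.89 (adjusted p of 0.0917) and 0.75 (adjusted p of 0.0911), although their day 14 libraries lay above their day 7 libraries, as in 21% of all tested genes. Cfb was at 0.13 (adjusted p of 0.703) and its days overlapped. The summed macrophage markers were 2.19-fold higher at day 14 in control cultures, with 16 of 21 tested markers called higher, and their part in these differences was not tested. Of the 4 calls, 1 was left without day 14 control replicate 1, 2 without day 14 control replicate 2, the library with high adipocyte markers, and 2 without day 7 control replicate 1; leaving out any other library left 3. These fits also called fewer genes in all, with 69, 128 and 148 called without day 14 control replicate 1, day 14 control replicate 2 and day 7 control replicate 1, against 608. When the 4 control libraries were fitted alone, limma called 0 of all tested genes, and 2184 genes, 7 of the 8 among them, were higher or lower at an unadjusted p under 0.05.

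In LAMZ cultures C1ra and Serping1 were called higher at day 14, against 5.1% of all tested genes, with log2 fold changes of 0.67 (SE 0.11, adjusted p of 0.00822) and 0.93 (SE 0.13, adjusted p of 0.00435; limma). The call of C1ra was lost without day 7 LAMZ replicate 1, without day 7 LAMZ replicate 2 or without day 14 LAMZ replicate 1, at adjusted p-values of up to 0.062, while Serping1 was called in each of 21 other settings. The summed macrophage markers were at 7.86 to 9.74 RPKM in day 7 LAMZ and 7.64 to 8.13 RPKM in day 14 LAMZ libraries. None of 21 tested markers was called in that comparison by limma or by voom, which weights recovered reads by their precision. At an unadjusted p under 0.05 the count was 0 as well. Of the 21, however, 19 had few or no reads in the LAMZ libraries of a day, so they could hardly have been called. The part of macrophage RNA in the gains of C1ra and Serping1 was not tested. The remaining 6 complement genes were not called, from 0.48 for C2 (adjusted p of 0.238) to -0.59 for Cfp (adjusted p of 0.104). The direction for Cfp differed from that in control cultures, where its value was 0.75.

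The difference of the LAMZ effect between the days was tested for each gene and none of the 8 was called, against 0.623% of all tested genes. The lowest adjusted p was that of Cfp, with a difference of -1.34 on the log2 scale (95% interval -2.04 to -0.64, p of 0.00228 before and 0.099 after adjustment over all genes). C1s1 had a difference of -0.71 (95% interval -1.09 to -0.33, adjusted p of 0.106) and C3 of -0.69 (95% interval -1.16 to -0.22, adjusted p of 0.165). At an unadjusted p under 0.05 these 3 genes passed (limma), and voom on recovered reads called 0 of the 8 as well.

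**Figure D3:**
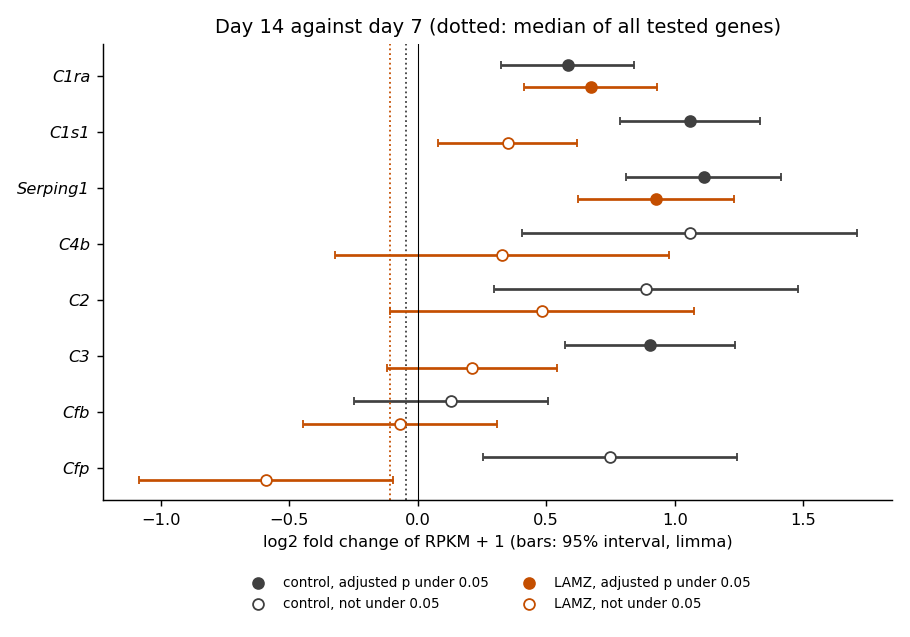
Log2 fold change of RPKM + 1, day 14 against day 7, for the 8 tested complement genes in control and LAMZ cultures; points are limma estimates from 2 libraries a group, filled where the adjusted p was under 0.05, bars are 95% intervals, and dotted lines mark the medians of all 12514 tested genes. Filled points are C1ra, C1s1, Serping1 and C3 in control and C1ra and Serping1 in LAMZ cultures.

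The level of macrophage markers moved with treatment in the same direction as the complement genes. Their sum was 65.3-fold higher in control than in LAMZ cultures at day 7 and 159-fold higher at day 14. Of 21 tested markers, 18 were called lower at day 7 and 20 at day 14, against 8.49% and 16% of all tested genes. Of the 23 markers, 21 were under 1 RPKM in every LAMZ library. The tested ones among them passed the filter on control libraries alone. This favoured lower calls, so the counts only describe the list. Across the 9 complement genes the ratios of mean RPKM, control over LAMZ, ran from 1.78 for C1s1 to 27.2 for C3 at day 7, and from 1.83 for C1ra to 32.5 for C3 at day 14. In the LAMZ libraries C1ra, C1s1 and Serping1 were at 7.67 to 24.8 RPKM and C3, Cfb, C2 and Cd55 at 0.145 to 0.952 RPKM. Of the macrophage markers there, C1qa, C1qb, C1qc, Tyrobp, Laptm5, Ctss, Mpeg1 and Fcgr1 were at 0. Other markers kept reads, with Lyz2 at 5.29 to 8.20 RPKM and Csf1r at 0.336 to 0.421 RPKM. The part of macrophage RNA in the control levels of the complement genes was not tested. Osteoblast and stromal markers went the other way in their sum, from 7728 to 9320 RPKM in day 7 control to 10069 to 10361 RPKM in day 7 LAMZ, and from 10984 to 11408 RPKM in day 14 control to 15098 to 17027 RPKM in day 14 LAMZ libraries. Col1a1 and Col1a2 made up most of these sums, with means of 6151 and 2648 RPKM in day 7 LAMZ libraries. Of the 16 markers, 6 were called higher and 2 lower at day 7, and 6 higher and 5 lower at day 14. Sp7, Alpl, Ibsp and Pth1r had higher means in LAMZ cultures on both days. Pdgfra, Pdgfrb, Twist1 and Prrx1 had lower means in LAMZ cultures on both days. At day 7 Alpl averaged 50.4 RPKM in control and 194 RPKM in LAMZ libraries, and Pdgfrb 57.0 and 35.1 RPKM. Adipocyte markers summed to 1.29 to 57.4 RPKM in control and 0.573 to 0.632 RPKM in LAMZ libraries, with both tested markers, Adipoq and Fabp4, called lower at day 14 and neither at day 7. Endothelial markers summed to 1.59 to 2.89 RPKM in control and 0.812 to 0.931 RPKM in LAMZ libraries, and Tek, the 1 that was tested, was called lower on both days. Adipoq, Fabp4 and Tek were under 1 RPKM in every LAMZ library and passed the filter on control libraries alone, which favoured lower calls. No lymphocyte, granulocyte or mast cell marker passed the filter on low values, and those lists summed to at most 2.76 RPKM.

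**Figure D4:**
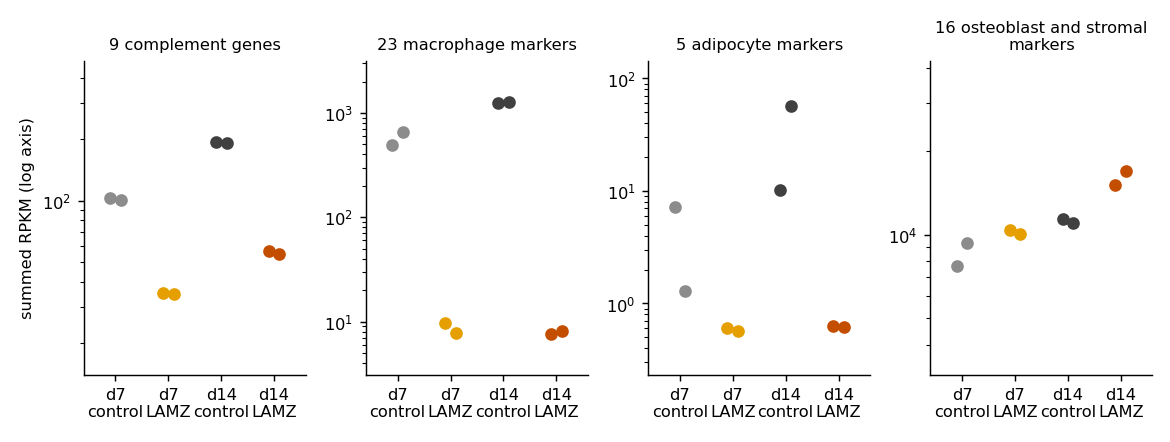
Summed RPKM (log axes, a separate range for each panel) of the 9 complement genes, 23 macrophage markers, 5 adipocyte markers and 16 osteoblast and stromal markers in each of the 8 libraries, by group (d7, day 7; d14, day 14). The LAMZ points lie below the control points in the first 3 panels, at 34.7 to 56.6 RPKM for the complement genes and 7.64 to 9.74 RPKM for the macrophage markers, and above the control points of the same day in the last panel.

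Other complement genes followed in part. The list held 40 genes, of which 16 passed the filter. None was called higher and 6 were called lower at day 7, and 2 were called higher and 9 lower at day 14 (limma). At day 7 the number higher was 0 with voom and 1 at an unadjusted p under 0.05. Among all tested genes 8.49% were called lower at day 7 and 16% at day 14, and 4.35% and 6.96% higher. C5ar1, C3ar1, Cd93, Vsig4 and Fcna, which were among the genes called lower, were under 1 RPKM in every LAMZ library. They passed the filter on control libraries alone, which favoured lower calls, so the counts only describe the list. The median log2 fold change of the 16 was -0.66 at day 7 and -0.98 at day 14, or -0.28 and -0.92 with groups of at most 3 reads a library raised to 3 reads. The receptors for the cleaved peptides of C3 and C5 were prominent: C5ar1 was at 3.48 to 3.72 RPKM in day 7 control and 6.71 to 7.54 RPKM in day 14 control libraries and at 0 in all 4 LAMZ libraries, at least 14.5-fold and 32.4-fold lower against a floor of 3 reads a library. C3ar1 was at 2.21 to 2.22 RPKM in day 7 control and 5.81 to 9.52 RPKM in day 14 control libraries and at 0.0476 RPKM or less in LAMZ libraries. Both receptors are known from macrophages. Cd93, Clu, Masp1 and Vsig4 were the others called lower on both days, Cd93 losing its call at day 7 in 5 of 21 other settings.

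Clu, which encodes clusterin, an inhibitor of the terminal pathway, was at 31.8 and 24.8 RPKM in day 7 control, 14.7 and 13.7 RPKM in day 7 LAMZ, 53.2 and 51.5 RPKM in day 14 control libraries, and it averaged 20.7 RPKM (SD 0.335, n = 2) in day 14 LAMZ libraries. Its log2 fold change was -0.94 at day 7 (adjusted p of 0.00438) and -1.30 at day 14 (limma), so it lay in the range of C1ra and C1s1. Masp1, a protease of the lectin pathway, was at 4.05 and 3.78 RPKM in day 7 control, 1.36 and 1.88 RPKM in day 7 LAMZ, 2.64 and 2.73 RPKM in day 14 control and 0.436 and 0.595 RPKM in day 14 LAMZ libraries. Fcna, the ficolin A of the lectin pathway, C1rl and Colec12 were called lower at day 14 only, and C1rl lost that call in 5 of 21 other settings. Vsig4 was called on few reads, at 8 or fewer in each library, and lost the call at day 7 in 15 of 21 other settings.

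The genes called higher at day 14 were C1qbp and Cd59a. C1qbp, whose product was named for binding C1q but resides mainly in mitochondria, was at 6.79 and 10.5 RPKM in day 14 control and 21.2 and 21.1 RPKM in day 14 LAMZ libraries (log2 fold change 1.23). Cd59a, which encodes an inhibitor of the membrane attack complex, was at 4.63 and 5.37 RPKM in day 14 control and 8.05 and 9.27 RPKM in day 14 LAMZ libraries (log2 fold change 0.69, adjusted p of 0.0168, limma); it lost the call in 4 of 21 other settings, among them libraries scaled to the same sum of RPKM, and C1qbp lost it in 2. The terminal components Hc, C6, C7, C8a, C8b and C9 were at 0.268 RPKM or less in every library, at 4 reads or fewer. C8g, also a terminal component, was at 0.643 to 2.67 RPKM with 5 to 18 reads a library, and it was not called on either day.

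**Figure D5:**
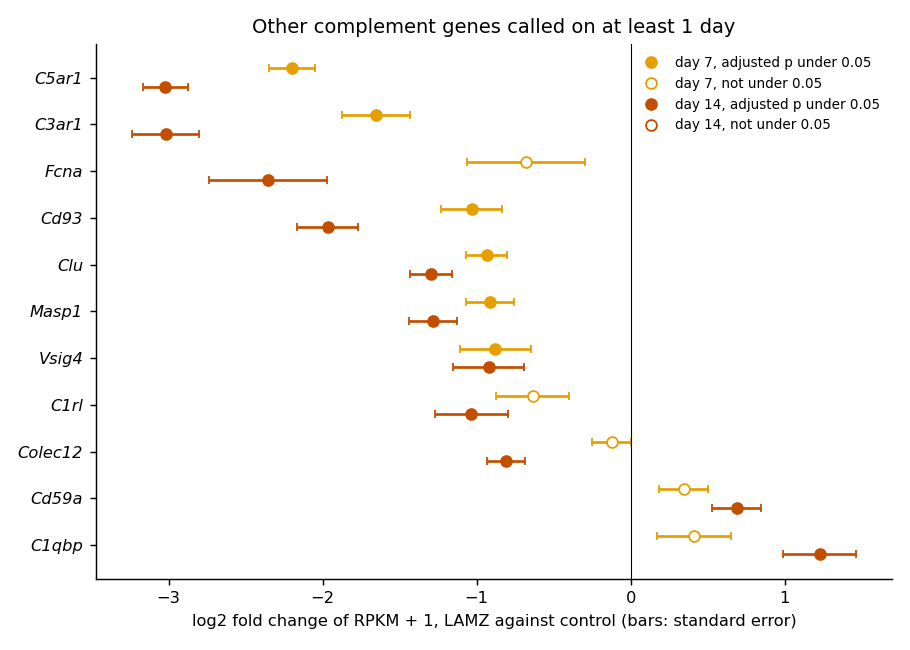
Log2 fold change of RPKM + 1, LAMZ against control, for the complement genes outside the 9 that were called on at least 1 day, at day 7 and day 14; points are limma estimates from 2 libraries a group, filled where the adjusted p was under 0.05, and bars are standard errors. C5ar1 and C3ar1 lie lowest and C1qbp and Cd59a highest; estimates of genes at 0 in LAMZ libraries depend on the added 1 and are no bound.

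Genes known to act on complement transcription were lower on balance as well. The list held 29 transcription factors, cytokines and receptors, of which 26 passed the filter. At day 7 none was called higher and 13 lower (limma), with 0 higher under voom and at an unadjusted p under 0.05. At day 14 there was 1 higher and 13 lower, and the medians were -0.56 and -0.50. Of all tested genes, 8.49% were called lower at day 7 and 16% at day 14, and 4.35% and 6.96% higher. The listed gene called higher was Nfe2l2, for the oxidative stress factor NRF2, with a log2 fold change of 0.50. It lost the call in 10 of 21 other settings. The counts of the list changed with scaling: with median centring 7 were called lower at day 7 and 9 at day 14. With libraries scaled to the same sum of RPKM 21 were called lower on each day. Calls among all tested genes changed too. The same sum gave 3592 at day 7 and 5796 at day 14, with 8.69% and 8.16% of them higher. Median centring gave 1602 and 2857, with 53.5% and 56.3% of them higher. Cebpa, which encodes the factor C/EBPα, was at 14.8 and 9.31 RPKM in day 7 control, 2.94 and 2.77 RPKM in day 7 LAMZ, 16.2 and 14.7 RPKM in day 14 control and 3.19 and 3.34 RPKM in day 14 LAMZ libraries. Its log2 fold change was -1.73 (adjusted p of 0.00129) and -1.95 (adjusted p of 0.000384; limma), and it was called lower in each of the other settings. Cebpb, for the related factor C/EBPβ, was not called on either day in the treatment comparison but was called higher at day 14 in LAMZ cultures, at 14.1 and 20.4 RPKM against 3.74 and 3.32 RPKM at day 7.

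The interferon-responsive factors Stat2 and Irf9 were called lower at day 7, with log2 fold changes of -1.37 and -1.40. Their day 7 control libraries stood apart from each other: Stat2 was at 6.22 RPKM in replicate 1 and 14.1 RPKM in replicate 2, and Irf9 at 3.79 and 10.9 RPKM. Without day 7 control replicate 2, Stat2 and Irf9 were not called. In the same pair of libraries C2 was at 1.16 and 2.09 RPKM, and C3, Cfp and C1s1 were also higher in replicate 2. C4b and Cfb were lower in replicate 2, at 5.17 and 4.01 RPKM and at 6.20 and 5.21 RPKM. C1ra, Serping1 and Cd55 were lower there as well. For each of these genes the counting intervals of the pair overlapped, so the order of the libraries was not resolved. A link of the complement genes to Stat2 and Irf9 was not tested. Ifng was at 0 in each library, and Il6 and Il1b had at most 1 read. Of the receptors, Osmr, Il6st, Il1r1, Tnfrsf1a and Ifngr1 were called lower on both days, and each of them lost the call of at least 1 day in 5 to 16 of 21 other settings. Ifngr2, which encodes the other chain of the interferon gamma receptor, was called lower at day 14 (-0.84). Nfkbia, for an inhibitor of NF-kB, was called lower on both days (-0.74 and -1.02), Irf1, an interferon-induced factor, at day 7 (-0.60; lost in 15 of 21 other settings) and Nr3c1, the glucocorticoid receptor, at day 14 (-0.73). Tnf was at 2.39 and 1.62 RPKM in day 14 control and at 0 in both day 14 LAMZ libraries, at least 5.82-fold lower. It passed the filter on control libraries alone.

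Across the 8 libraries the complement genes varied together; these are 4 groups of 2 libraries, so r is a description. Pearson's r of log2(RPKM + 1) between pairs of the 8 tested genes ran from 0.778 for C1ra and Cfp to 0.984 for C1ra and Serping1, and it was 0.978 for C3 and Cfb. The 2 genes outside the set with the pattern most like each member were taken from 12506 genes. For C3 they were Il4ra (r of 0.999) and Lipa (0.998), for Cfb Pxn (0.999) and Slfn5 (0.997), and for Serping1 Epas1 (0.992) and Rarres2 (0.991). C1ra was most like Aplp2 (0.994) and Tns3 (0.992), C1s1 most like Slc9a9 (0.989) and Xdh (0.988), C2 most like Acp2 (0.994) and Ch25h (0.988), C4b most like Dok2 (0.997) and Slc25a45 (0.990), and Cfp most like Ngfr (0.994) and Meox2 (0.990). Between 279 and 823 genes reached an r of 0.9 with a given member, so these neighbours are not far above many others.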

How the data were processed

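RNA of 8 mouse libraries was sequenced on an Ion Proton instrument, and the authors mapped reads to mm10 and deposited RPKM values for each gene symbol, made with CLC Genomics Workbench; the value column of day 7 LAMZ replicate 1 carries a header unlike the others and was assigned by its sample record; how multiply mapped reads and strand were treated is not given in the sources used here. After 4 repeated symbols were dropped, 51822 were used. Whole reads were recovered from RPKM with GENCODE M21 exon lengths: 96.32 to 97.62% of low values (8 reads or fewer, single-exon genes) lay within 0.02 of a whole read. Intervals from these reads cover counting error only.

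The fit was made with limma 3.58.1 in R 4.3.3 on log2(RPKM + 1), so fold changes understate those of low genes. The 12514 genes at 1 RPKM or more in at least 2 libraries entered 1 model of 4 groups, with a trended prior, and adjusted p-values are those of Benjamini and Hochberg over these genes. The method was tested on simulated data. Replicate numbers did not pair the libraries. The genes and lists were chosen with earlier results of these data known; within the lists of complement genes and of regulators, genes called in a LAMZ comparison were named, largest change first and up to 8, together with any whose level a comparison needed. Likeness was Pearson's r over 8 libraries. Promoters came from RefSeq (GRCm38.p6) and were searched on both strands. Alternatives changed the pseudocount, filter, scaling, replicate block, libraries fitted and trend, left out each library in turn, or used voom on recovered reads. The last was added after the data were seen.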

Additional observations from a re-analysis of the deposited data

How the results depend on the processing

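Over the alternatives tried, the number of complement genes called lower in LAMZ cultures stayed between 6 and 8 of 8 at day 7, between 7 and 8 at day 14, and at 8 for the average of both days, and no direction in these comparisons changed. Depth limits C2, C3, Cfb and Cfp in LAMZ libraries, where a library held 2 to 18 reads of each. Day 14 against day 7 was less stable. In control cultures the 4 higher calls became 2 without the filter on low values, 7 with libraries scaled to the same sum of RPKM, 7 with voom on recovered reads, a setting chosen after the data were seen, and 0 with only the 4 libraries of the comparison, a fit that called 0 of all tested genes; leaving out 1 library gave 1 to 3. In LAMZ cultures the 2 higher calls became 1 to 2 when 1 library was left out. The cause was not tested. Small day effects changed sign: Cfb in LAMZ cultures (-0.07) was at 0.034 with median centring and ranged from -0.204 to 0.0673 when 1 library was left out, above 0 without day 7 LAMZ replicate 2 or day 14 LAMZ replicate 2, and C4b there (0.33) ranged from -0.0469, without day 7 LAMZ replicate 2, to 0.704. The difference of the LAMZ effect for C2 (-0.40) was at 0.0563 with a pseudocount of 0.1 and 0.254 with voom.

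Samples with the same replicate number did not deviate together, with correlations of -0.0166 to 0.062. A replicate block within each day or treatment gave 2 higher calls at day 14 in control cultures in place of 4, and 984 called genes at day 7 in place of 1607. With all 8 libraries or the 4 of a day, called genes ranged from 624 (4 libraries of that day) to 3592 (same sum) at day 7, and from 2171 (block) to 5796 (same sum) at day 14, against 2878. Leaving out 1 library gave 527 (without day 7 LAMZ replicate 1) to 1383 at day 7, and 1512 (without day 14 LAMZ replicate 2) to 3087 at day 14. Scaling moved the share of called genes that were higher from 33.9% to 53.5% (median centring) or 8.69% (same sum) at day 7, and from 30.3% to 56.3% or 8.16% at day 14. It shifted the median of all genes from -0.08 to 0.03 or -0.31 at day 7, and from -0.15 to 0.04 or -0.43 at day 14.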
